A study of Mus musculus with 2 samples.

Results

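The proneural basic helix-loop-helix (bHLH) genes Neurog1, Neurog2, Neurog3, Neurod1, Neurod4, Nhlh1, Nhlh2 and Atoh1 were followed in mouse embryonic stem (ES) cells and in cells of their neural differentiation. The genes were taken by name from a fixed list, and every gene probe carrying 1 of these names on both arrays was kept. Each of the 8 genes had 1 probe, spotted once, so 8 of 19465 named genes on the array, and 8 of its 41043 gene probes usable on both arrays, are described here. The day 0 array held RNA of undifferentiated ES cells of the line R1, grown on mitotically inactive fibroblast feeders with 15% serum and 1000 U/ml of LIF, the factor that keeps ES cells undifferentiated. The day 6 array held RNA of R1 embryoid body cells, which the labels call neural precursors, made by a published direct neural differentiation method. R1 is 1 ES cell line, and no label says whether feeders were taken away before RNA was made. Each day had 1 array, so no test between days was possible, no difference has a replicate check, and every value describes these 2 RNA samples. Medium, feeders, aggregation and time in differentiation cannot be told apart.

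Proneural bHLH proteins are transcription factors that push neural progenitors to leave the cell cycle and become neurons. They bind the DNA sequence CANNTG, called the E-box, as dimers with the widely expressed E proteins. Id proteins block these dimers, and Hes and Hey repressors, which act downstream of Notch, hold the proneural genes down. The neurogenins and Atoh1 are known as early, determining members, whereas Neurod1, Neurod4, Nhlh1 and Nhlh2 are known from later steps in which young neurons differentiate.

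The genes split into 3 kinds of behaviour. Neurog2, Neurod4, Nhlh1 and Nhlh2 were not well above background in ES cells and had bounds of at least 18.8-fold to at least 108-fold higher on day 6 from the processed signals. From raw spot signals, with no background removed, the same bounds ran from 8.65-fold to 48.8-fold, so each "at least" holds for the processed signals and is not a floor for every way of treating background. Neurog1, Neurog3 and Neurod1 were well above background on both days and stayed within 2-fold. Atoh1 was not well above background on either day. So 4 of the 8 genes passed 2-fold upward and 0 downward, where 17.5% of the 28378 probes well above background on at least 1 array passed 2-fold upward and 18.1% downward. All 4 also passed 16-fold upward from the processed signals, and 2 of the 4 (Nhlh1 and Nhlh2) did with normexp background correction or with no background removed. From the processed signals 16-fold was a size reached by 0.98% of those probes and by 4.44% of the probes that were bright on day 6 alone. A gene that is dim on day 0 and bright on day 6 has to be higher on day 6, so these counts are a description of the 4 genes and no more. Becoming well above background on day 6 alone was seen for 4 of the 8 probes and for 7.68% of all 41043 probes.

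The 250 bases before the annotated starts are shown for Nhlh1, Nhlh2 and Neurod4, which were higher together, and for Neurod1, which was not. They are from RefSeq on GRCm38.p6, are written 5′ to 3′ on the gene's strand, and carry each E-box (CANNTG, which reads the same on both strands) in capitals. Nhlh1 is at chr1:172057597-172057846 on the minus strand, Neurod4 at chr10:130280255-130280504 on the minus strand and Neurod1 at chr2:79456637-79456886 on the minus strand. For Nhlh2, only the 216 bases before its annotated gene are shown, at chr3:102009895-102010110 on the plus strand.
Nhlh1: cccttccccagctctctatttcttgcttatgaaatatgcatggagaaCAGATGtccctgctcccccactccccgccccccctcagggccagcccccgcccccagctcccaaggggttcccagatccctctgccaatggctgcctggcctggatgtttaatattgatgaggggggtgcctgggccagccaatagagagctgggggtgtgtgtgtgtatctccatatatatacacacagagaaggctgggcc
Nhlh2: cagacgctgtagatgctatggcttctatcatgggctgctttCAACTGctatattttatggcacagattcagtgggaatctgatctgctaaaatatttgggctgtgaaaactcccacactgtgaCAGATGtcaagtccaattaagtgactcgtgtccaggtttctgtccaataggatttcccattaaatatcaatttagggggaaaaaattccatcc
Neurod4: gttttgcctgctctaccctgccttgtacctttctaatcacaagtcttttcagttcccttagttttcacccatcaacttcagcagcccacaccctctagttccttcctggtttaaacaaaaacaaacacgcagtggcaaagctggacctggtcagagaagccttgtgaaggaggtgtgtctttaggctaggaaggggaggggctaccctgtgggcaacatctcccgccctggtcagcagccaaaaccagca
Neurod1: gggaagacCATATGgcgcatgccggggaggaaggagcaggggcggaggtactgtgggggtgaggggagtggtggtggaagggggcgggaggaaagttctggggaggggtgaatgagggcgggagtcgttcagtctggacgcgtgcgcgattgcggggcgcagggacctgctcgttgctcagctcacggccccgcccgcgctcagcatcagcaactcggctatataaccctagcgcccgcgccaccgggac

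An E-box was found before 4 of the 8 genes, and 66.2% of all 32851 RefSeq promoter windows of the same length held at least 1. Nhlh1 and Nhlh2 each held the form CAGATG, at 203 and 127 bases before the start, and Nhlh2 also held CAACTG at 209 bases. All Nhlh2 positions are counted from the annotated start of its full window, which lies past the end of the stretch shown. CAGATG, counted on both strands with CATCTG, is a form that neurogenin and NeuroD proteins are known to bind, and it occurred in 14.4% of all windows. Neurod1 held CATATG at 242 bases (3.46% of windows) and Neurog3 held CAGCTG at 165 bases (13% of windows). Both of these read the same on either strand. Both annotated starts of Neurod4 and the windows of Neurog1, Neurog2 and Atoh1 held no E-box in this stretch. The N-box CACNAG is a motif bound by Hes repressors and was searched on both strands (CTNGTG on the other). It was found before Nhlh2 (at 103 bases) and before the first start of Neurod4 (at 213 and 90 bases). The second start of Neurod4 had it at 206 bases. Of all windows, 36.7% held it. A match of letters is not evidence of binding, and no binding was measured here.

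The probes of Neurog1, Neurog3 and Atoh1 are shown because these genes were the ones with weak or no signal, where the identity of the probe matters most. Each is 60 bases long and has at least 1 reading frame without a stop codon (2 for Neurog1 and Neurog3, 3 for Atoh1). The exon each lies in was not analysed here. Their positions are in the mouse build mm7 (NCBI build 35), as the file headers name it.
Neurog1: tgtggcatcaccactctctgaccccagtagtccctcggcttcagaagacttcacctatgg
Neurog3: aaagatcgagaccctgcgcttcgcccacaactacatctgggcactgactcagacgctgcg
Atoh1: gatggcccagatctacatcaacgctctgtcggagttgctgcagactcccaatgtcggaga
The Neurog1 probe (accession NM_010896) lies at chr13:55340531-55340590 on the minus strand. The Neurog3 probe (NM_009719) lies at chr10:61652560-61652619 on the plus strand, and the Atoh1 probe (NM_007500) at chr6:64717912-64717971 on the plus strand. All 8 probes lay on the strand of their gene's RefSeq promoter. The longest run of bases that any of the 8 shared with another gene probe of the array was 13 to 15 bases. This compares probes only, not whole transcripts.

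Among the determining genes, Neurog2 was the one that passed 2-fold. Neurog2, a neurogenin of the cortex, spinal cord and sensory ganglia, gave 25.3 intensity units on day 0 and 2247 ± 226 on day 6. Intensities are Agilent processed signals, from which the software took a background surface fitted across the array (detrending), in arbitrary units, and ± marks the error that the scanner software assigns. The day 0 value is a surrogate that the software writes for a spot not above background. Before detrending the Neurog2 spot read 116 against a local background of 56 on day 0, and 2101 against 64 on day 6. After each array was scaled by its 75th percentile, Neurog2 was at least 18.8-fold higher on day 6 (log2 bound 4.23), against 9.65-fold with normexp and 8.65-fold with no background removed. The bound sets the bright day against the lowest signal counted as well above background on the dim day, which was 102 on day 0 and 85.2 on day 6. Its probe (NM_009718) lies at chr3:127472378-127472437 on the plus strand of mm7.

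Neurog1, which specifies cranial sensory neurons and dorsal spinal interneurons, had low intensities on both days, 154 ± 27.3 on day 0 and 264 ± 32.1 on day 6. The log2 difference was 0.55 ± 0.31 (software SD), or 1.47-fold, and exceeded that of 74.8% of the 23731 probes well above background on both arrays. Neurog3, the determinant of pancreatic endocrine cells that also acts in parts of the nervous system, had 177 ± 26.9 and 287 ± 33.3. Its log2 difference was 0.48 ± 0.28, or 1.39-fold, and exceeded that of 72.6% of the same probes. The software SD of both genes is wider than the 0.20 log2 units found at the median of those probes. Neither gene reached 2-fold, and both differences lay within 2 software SDs of 0. That SD is an error the scanner software assigns, and it does not hold the spread between cultures.

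Atoh1, the determinant of cerebellar granule neurons and inner ear hair cells, was not well above background on either day. Its intensities were 23.9 and 19.4, both surrogates, and its spot read 134 on day 0 and 129 on day 6 against local backgrounds of 63 and 68. No fold is given for it. A level below the software's limit was not detectable here, which does not show that the transcript was absent.

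The differentiation genes Neurod4, Nhlh1 and Nhlh2 were higher, and Neurod1 was not. Nhlh1, a bHLH factor of newborn neurons, gave 25.4 units on day 0, a surrogate, and 12894 ± 1290 on day 6. The bound was 108-fold (log2 6.75) from the processed signals, 55.0-fold with normexp and 48.8-fold with no background removed. Its spot before detrending read 120 on day 0 and 11860 on day 6, over local backgrounds of 55 and 60. The probe (NM_010916) lies at chr1:172022461-172022520 on the minus strand of mm7.

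Nhlh2, its close relative, known also from hypothalamic neurons, had 20.8 on day 0 and 6606 ± 661 on day 6. Its bound was 55.3-fold (log2 5.79), or 33.2-fold with normexp and 29.6-fold with no background removed, with a probe (NM_178777) at chr3:101807443-101807502 on the plus strand. Neurod4, which acts with other bHLH genes in retinal, hindbrain and spinal neurons, had 21.4 on day 0 and 2659 ± 266 on day 6. Its bound was 22.3-fold (log2 4.48), or 13.5-fold with normexp and 12.1-fold with no background removed, with a probe (NM_007501) at chr10:129779557-129779616 on the minus strand. The 3 genes share the same picture, a surrogate on day 0 and a clear signal on day 6.

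Neurod1, a factor of differentiating neurons and of pancreatic beta cells, had 1252 ± 127 on day 0 and 1026 ± 104 on day 6. The log2 difference was -0.51 ± 0.21 (1.43-fold lower), more than 2 software SDs from 0, and 31.5% of those 23731 probes had a lower difference. That SD does not hold the spread between cultures, so it does not show a decrease between them, and the gene stayed within 2-fold. Its spot was clear of background on both days, at 1415 over 54 on day 0 and 1187 over 59 on day 6. The probe (NM_010894) lies at chr2:79297180-79297239 on the minus strand. Its base composition was the poorest in G and C of the 8 probes, at 23.3%, against 31.7% to 58.3% for the others. Neurod1 was the only gene of its differentiation group with a clear day 0 signal. The share of ES and of feeder cells in that signal was not tested. In these bulk samples, fewer cells of a type and less RNA per cell cannot be told apart.

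**Figure D1:**
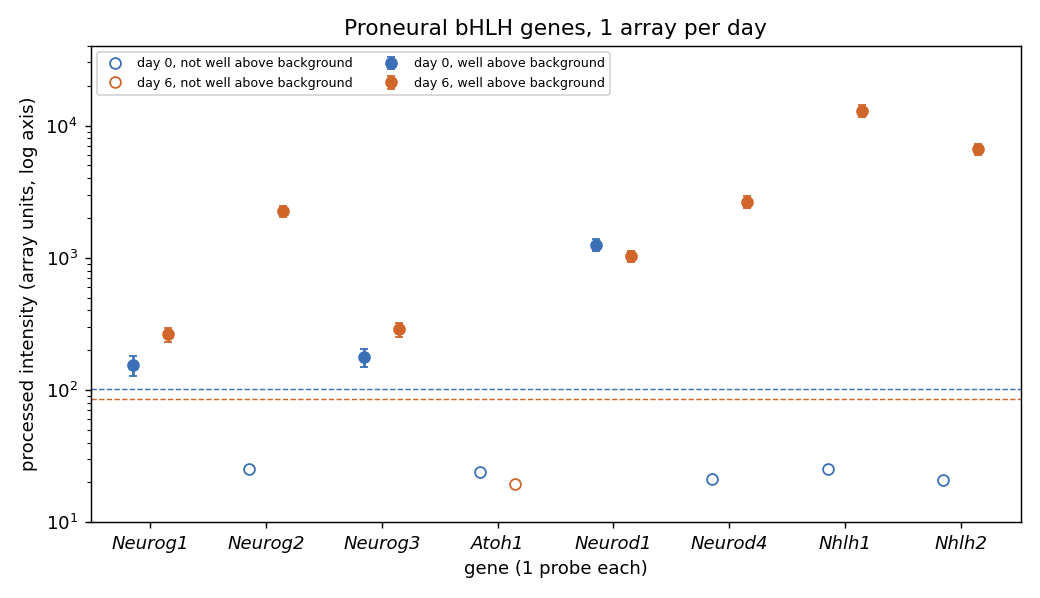
Processed intensity (log axis, array units) of each of the 8 genes on the day 0 array (blue) and the day 6 array (orange), 1 array each, with the software error as bars. Open circles are not well above background and dashed lines are the lowest intensity well above background (102 on day 0, 85.2 on day 6). Neurog2, Neurod4, Nhlh1 and Nhlh2 pass from open to filled, Neurog1, Neurog3 and Neurod1 are filled on both days, and Atoh1 is open on both.

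**Figure D2:**
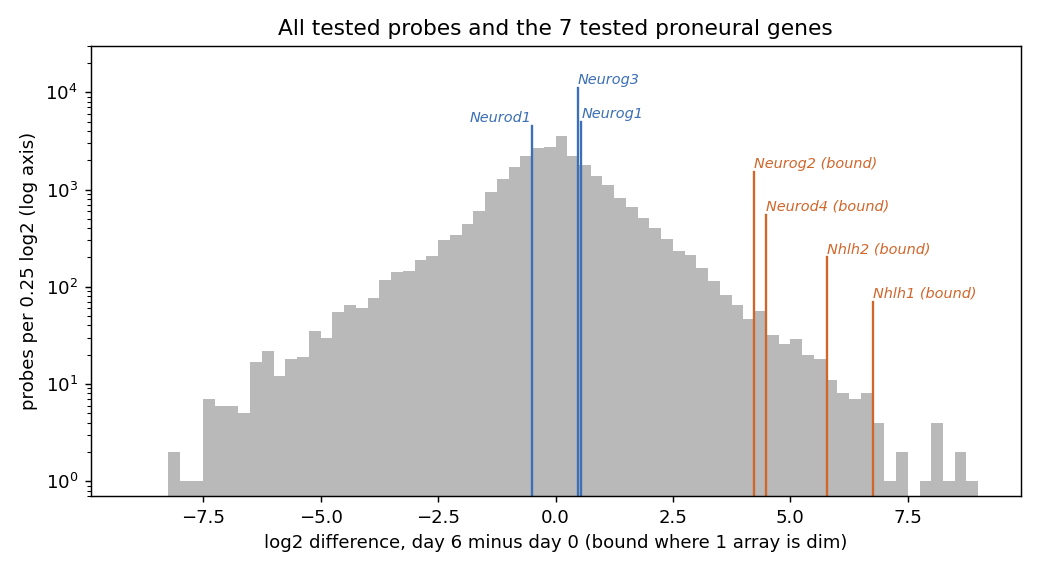
Number of probes (log axis) by log2 difference, day 6 minus day 0, for the 28378 probes well above background on at least 1 array, with bounds where 1 array was dim. Vertical lines mark the 7 proneural genes that could be placed, whose heights carry no value. Neurog1, Neurog3 and Neurod1 stand in the bulk, between -0.51 and 0.55, and the 4 bounds stand from 4.23 to 6.75.

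Among 1195 genes whose probe was well above background on day 6 only, the genes nearest to Nhlh1 in the size of the bound were Isl1 (at least 106-fold), Ednrb (at least 113-fold) and Shh (at least 100-fold). Likeness here is the distance between log2 bounds, at most 0.11, over 2 arrays, and it says only that the numbers are close. Isl1 is a LIM homeobox factor of motor and sensory neurons, Ednrb the endothelin receptor B, and Shh the ligand Sonic hedgehog.

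The cells otherwise looked as follows. All 6 pluripotent markers were at least 2-fold lower on day 6, and their summed intensity was 422542 on day 0 and 7222 on day 6. Of 6 neural progenitor markers 4 were at least 2-fold higher (summed 38294 and 315432), and of 6 neuron markers 5 were (35181 and 215534). Over all genes 17.8% passed 2-fold upward and 20.1% downward. A few genes held much of these sums. On day 0 a progenitor marker that stayed within 2-fold held 33271, and a neuron marker that stayed within 2-fold held 18850. On day 6 Hes5 held 135960.5 of the progenitor sum and Elavl4 held 108798 of the neuron sum. Of 8 fibroblast markers 6 were at least 2-fold lower, including Col1a1, at 46223.5 and 2699.7, and Lox, at 8589 and 43.4. Col3a1, at 3380.3 and 4588.7, and Vim stayed within 2-fold. Vim, which neural progenitors express too, held most of that list's summed intensity of 309298 and 269833. Of 6 endoderm markers 4 were measured and 2 passed 2-fold upward (1286 and 51902, of which Foxa2, also a floor plate gene, held 410.5 and 50104), and of 6 mesoderm markers 1 was higher and 3 lower (9470 and 7650). Sox17 had a log2 difference of 1.58 (329 and 1153), Gata6 was at 473 and 504, and Afp and Ttr were not well above background on either day. The part of these cell types in the proneural values was not tested.

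The dimer partners of the proneural proteins were well above background on both days. Tcf12 (HEB) was 6.49-fold higher on day 6, with 13500.5 units on day 0 and 102323.5 on day 6, and its 5 probes gave log2 differences from 1.44 to 2.70. Tcf4 (E2-2) was 1.75-fold higher by its brightest probe, and its probes reached from 0.81 to 1.17. Tcf3 (E2A) had a log2 difference of 0.38. Of the 3 partners 1 was therefore at least 2-fold higher, where 17.8% of 14966 genes passed 2-fold upward and 20.1% downward. The median log2 difference of all genes was -0.09. The same shares of all genes are the background for every list count below. Bounds of the genes in these lists are from the processed signals too.

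The Id genes, whose products take E proteins out of dimers, moved apart. Id4 was 8.82-fold higher, from 2464 to 25355 units. Id1 was 2.29-fold lower, from 43243 to 22018 units. Id2 (log2 difference -0.19 ± 0.20) and Id3 (0.88 ± 0.20) stayed within 2-fold.

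Of 6 measured Hes and Hey repressor genes 5 passed 2-fold upward and 0 downward, against 17.8% and 20.1% of all genes. Their median was 1.83, and 2 of the 6 values are bounds. Hes5, a direct Notch target that represses proneural genes, was 268-fold higher, from 434 to 135960.5 units. Hey1 was 7.27-fold higher and Heyl at least 4.55-fold higher, with a log2 bound of 0.48 from its other probe. Hes2 was 2.77-fold higher by its brightest probe, while its other probe gave a log2 difference of -0.29. Hes3 and Hes7, named after their values were seen, were not well above background on either day. High signal of a repressor gene and of the genes it represses in the same bulk RNA does not say that they were in the same cells.

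Of the other neural bHLH genes, 10 of 12 were measured, and 6 of these passed 2-fold upward and 0 downward. Over all genes 17.8% and 20.1% did. The list's median was 1.60, and 5 of the 10 values are bounds. A bound below 2-fold counts as within 2-fold here, although the true difference may be larger. Bhlhe22 and Bhlhe23, relatives of the Olig genes, were 6.66-fold and 3.66-fold higher. Atoh7, the retinal ganglion cell determinant, was at least 3.44-fold higher. Neurod2 and Neurod6, which act late in cortical neurons and are named here after their values were seen, were not well above background on either day.

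The bHLH genes of other tissues differed from this. Of 27 listed, 16 were measured, of which 2 passed 2-fold upward and 7 downward. Over all genes 17.8% and 20.1% did. The list's median was -0.75, and 7 of the 16 values are bounds. Tcf15, a factor of somites and of primed ES cells, was 41.1-fold lower. Hand1, of heart and trophoblast, was at least 13.4-fold lower, Twist2 10.5-fold lower and Msc at least 8.41-fold lower. Tal2, known from the midbrain as well as from leukaemia, was 7.17-fold higher, and Ferd3l, of the floor plate, at least 2.03-fold higher. The muscle determinants Myod1 and Myf5, named after their values were seen, were not well above background on either day.

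Of 31 genes known as targets or followers of proneural factors, 30 were measured, of which 24 passed 2-fold upward and 1 downward, around a median of 2.56 (6 of the 30 values are bounds). The bounds for Dcx, which binds microtubules in young neurons, and for St18, a zinc finger gene, put Dcx at least 93.5-fold and St18 at least 81.7-fold up. For Elavl4, an RNA-binding protein gene of neurons, the difference was 59.2-fold, and for Ebf3, a factor of early neurons, 53.7-fold. The second Ebf3 probe gave a log2 difference of only 0.27, and the second measured Dcx probe a bound of 1.65. The Notch ligand gene Dll1 and the zinc finger gene Insm1, both named after their values were seen, were 6.77-fold and 5.25-fold higher. Eomes, a gene of cortical intermediate progenitors and also of early mesoderm, was the 1 lower gene, at 1967 and 417 units, or 5.51-fold lower. Tubb3, Dcx, Elavl3 and Elavl4 of this list are also in the neuron marker list.

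Of 13 measured cofactors and modifiers, 3 passed 2-fold upward and 1 downward, around a median of 0.44. Over all genes 17.8% passed 2-fold upward and 20.1% downward, so the upward count is not far from that share. The neuronal Sox genes Sox11 and Sox4 were 8.29-fold and 4.15-fold higher. Gsk3b, the gene of a kinase that modifies neurogenins, was 2.72-fold higher by its brightest probe, while its other probe gave a log2 difference of 0.71. Rest, a repressor of neuronal genes in other cells, was 5.05-fold lower, from 68676 to 15869 units, and its 3 probes gave log2 differences from -2.51 to -2.22.

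The last lists covered lineages that single members are known for. With Atoh1 itself dim, 7 of 10 genes of dorsal hindbrain and hair cells were measured. Of these, 4 passed 2-fold upward and 0 downward, against 17.8% and 20.1% of all genes. The median was 1.41, and 3 of the 7 values are bounds. The 4 were Lhx2 (26.3-fold), Zic1 (10.1-fold), Wnt1 (log2 bound 2.81) and Lmx1a (at least 2.65-fold), all of them genes of other neural regions too. The hair cell factor genes Pou4f3 and Gfi1, named after their values were seen, were not well above background on either day. Barhl2, also named afterwards, was dim on both days too. Barhl1 and Lhx9, named afterwards as well, stayed within 2-fold, with log2 differences of -0.45 and -0.09.

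All 10 genes of the sensory lineage of Neurog1 were measured, and 5 passed 2-fold upward and 1 downward, against 17.8% and 20.1% of all genes. The median was 1.16, and 3 of the 10 values are bounds. Isl1 was at least 106-fold higher, the neurotrophin receptor gene Ntrk3 at least 11.2-fold, Eya1 5.26-fold and Ntrk2 3.77-fold. The other Eya1 probe gave a log2 difference of 0.56. Over the members well above background on both arrays alone, the median was -0.10.

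Of 18 genes of the endocrine pancreas, the lineage Neurog3 is known for, 12 were measured. Among these 12, 4 passed 2-fold upward and 1 downward, against 17.8% and 20.1% of all genes, around a median of 0.63. Sst (somatostatin) was at least 120-fold higher, from 83.4 to 14321 units, Nkx6-1 89.2-fold, Chgb 46.4-fold and Nkx2-2 18.1-fold higher. These 4 are also genes of neurons or of the ventral neural tube. Rfx6 was 2.78-fold lower. Of the 18 genes, 6 (Pdx1, Pax4, Mafa, Ins1, Gcg and Ppy, named after their values were seen) were not well above background on either day, while Ins2 (484 and 913), Pcsk1 (509 and 977), Pcsk2 (1976 and 2048) and Chga (6492 and 3905), also named afterwards, were well above it on both days and stayed within 2-fold.

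**Figure D3:**
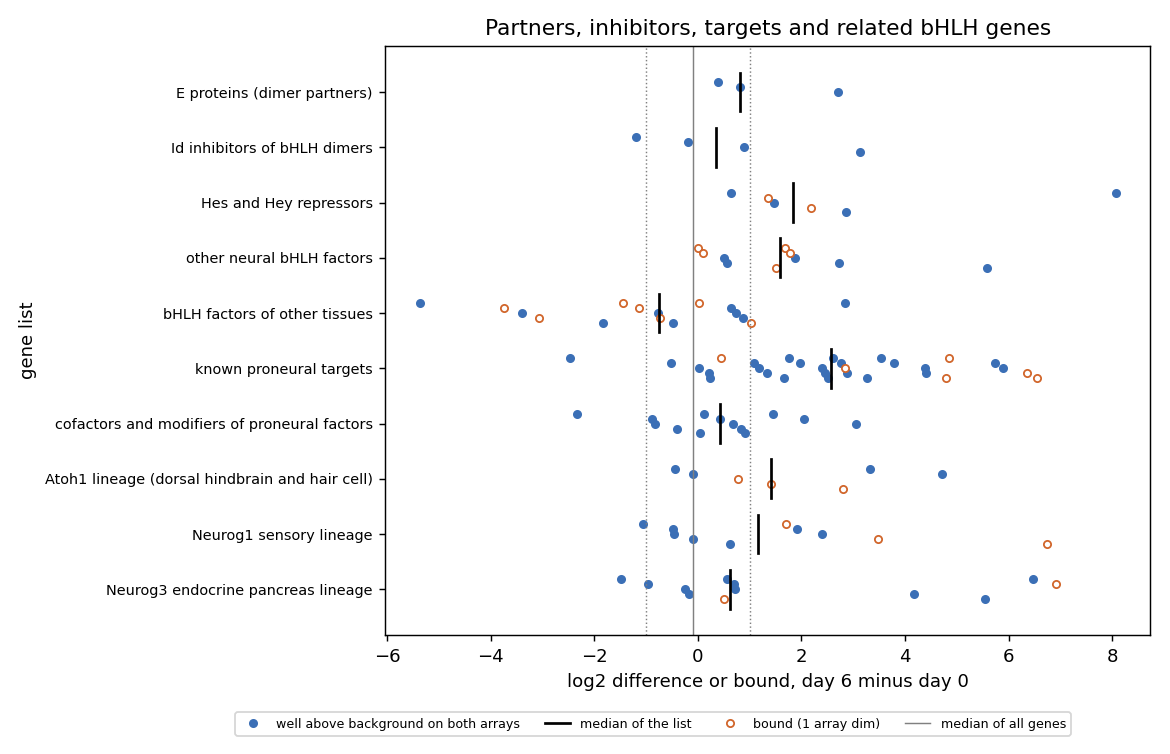
Log2 difference, day 6 minus day 0, of each measured gene of the 10 related lists, by the gene's brightest probe, 1 array per day. Filled points are well above background on both arrays, open points are bounds, black bars are list medians, dotted lines mark 2-fold and the grey line is the median of all genes (-0.09). The known proneural targets have a median of 2.56 and the bHLH genes of other tissues one of -0.75.

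**Figure D4:**
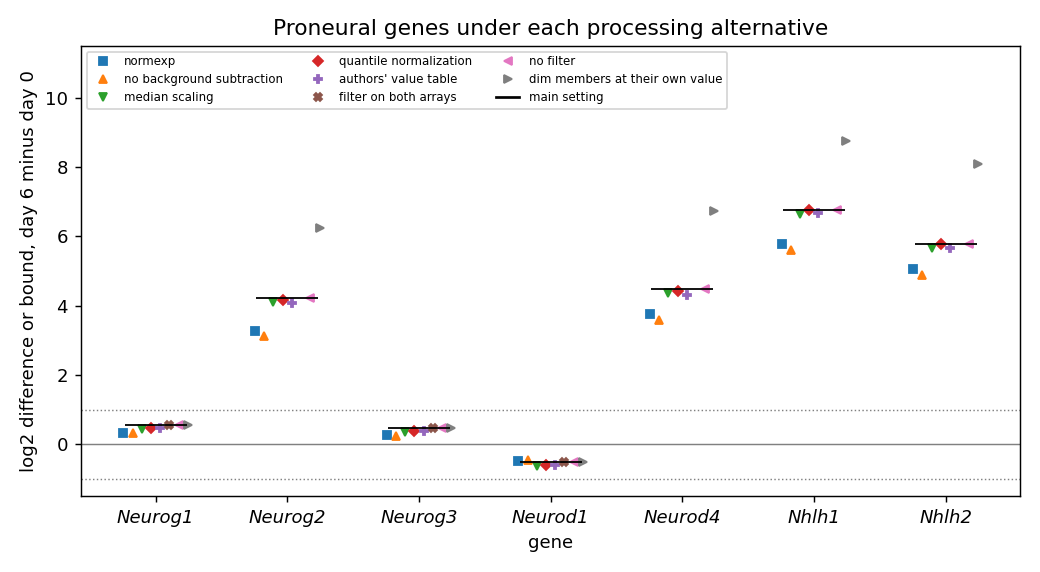
Log2 difference or bound, day 6 minus day 0, of the 7 placed proneural genes under the main setting (black bars) and each processing alternative (symbols). Dotted lines mark 2-fold. Neurog2, Neurod4, Nhlh1 and Nhlh2 stand above 2-fold in every alternative that could place them, the lowest being 3.11 for Neurog2 without background subtraction, and Neurog1, Neurog3 and Neurod1 stay between the dotted lines.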

How the data were processed

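RNA of 1 day 0 and 1 day 6 sample was read on 1-colour Agilent arrays (design 014868), both in 1 scan, so array position and day cannot be told apart. Per the file headers, Feature Extraction 9.5.3.1 made the deposited intensity values with spatial and multiplicative detrending on and its separate background correction off, wrote surrogates for spots not above background and modelled a multiplicative error of 0.1. The authors also deposited a log2 value table by steps not given in the sources used here. Scale and direction of that table were settled against the scanner files (Pearson correlation of differences across probes 0.989, slope 0.984), its median was 8.53 in both columns, and it was used as an alternative.

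From 45018 spots, control spots and outlier spots (186 and 216 of the gene spots) were left out, log2 intensities of spots of a probe averaged and the array's 75th percentile (3758 and 4388 units) subtracted. On day 0 61.5% of probes and on day 6 65.5% were well above background. Probes were named through RefSeq (GRCm38.p6, names only): 22896 by accession, 6638 by symbol, 3090 by an older symbol, and 8419 had no name. A gene took its brightest probe. The number of arrays limits the precision, and the spread between 10 spots of a probe (median SD 0.0541 and 0.0485 log2 units, 127 probes) does not hold that between cultures. With 1 array a group no test was made. Where 1 array was dim, the difference is a bound. The calculation was tested on simulated data. The alternative without background subtraction used the raw mean signal of each spot. Normexp used limma 3.58.1 in R 4.3.3, and the rest Python 3.11.15. The genes named are all 8 proneural genes, up to 4 higher and 4 lower genes per list and the markers, except a few genes that are not reported here. The members and lists were chosen with earlier results of these data known.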

Additional observations from a re-analysis of the deposited data

How the results depend on the processing

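No paired analysis was possible because each day had 1 array, and for the same reason no replicate could be left out. Neurog1 ranged from 0.31 to 0.55, Neurog3 from 0.25 to 0.48 and Neurod1 from -0.63 to -0.47 over 8 alternatives each. Over 7 each, the bounds ranged from 3.11 to 6.25 for Neurog2, 3.59 to 6.74 for Neurod4, 5.61 to 8.76 for Nhlh1 and 4.89 to 8.09 for Nhlh2, where the highest take the day 0 surrogate at face value. The count of proneural genes at least 2-fold higher was 0 with the filter on both arrays, which by construction drops the 4 genes dim on day 0, and 4 in each other alternative. All genes had a median of -0.20 after median scaling, against -0.09 as reported, and of 0 after quantile normalization and in the authors' value table. Counts of genes and of probes stayed within 1.5 times under each alternative that gave them.

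List medians that changed by over 1 software SD (the median over a list's genes) are these. For Hes and Hey repressors it was 1.40 with normexp, 1.32 without background subtraction, 2.17 if both arrays had to be bright, 1.41 with no filter, 2.22 with dim genes at their own value and 1.34 with a gene's probes averaged. For other neural bHLH factors it was 1.15 with normexp, 1.06 without background subtraction, 1.03 with no filter and 1.99 with dim genes at their own value. For the Atoh1 lineage it was 0.84 with normexp, 0.75 without background subtraction, 0.34 with no filter and 2.89 with dim genes at their own value. For the Neurog1 lineage it was 0.89 with normexp, 0.83 without background subtraction, 0.75 with a gene's probes averaged and -0.10, the 1 reversal, with the filter on both arrays. With quantile normalization and the authors' value table the Id median was 0.56 and 0.57 and the cofactor median 0.71 and 0.71. The bHLH factors of other tissues stood at -0.49 under either change of filter, the Neurog3 lineage at 0.24 with no filter and the E proteins at 1.01 with a gene's probes averaged. The cause was not tested, except that changed filters and dim genes at their own value use other genes or values by construction. Signal over background limits Neurog2, Neurod4, Nhlh1, Nhlh2 and Atoh1, for which only a bound or no fold is known.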

Other observations

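Probes placed within 100 kb of a proneural probe on mm7 gave a view of the surrounding genes. There were 30 such probes, 19 were well above background on at least 1 array, 5 passed 2-fold upward and 1 downward, against 17.5% upward and 18.1% downward over all probes tested. The 5 are probes of only 2 genes, Vangl2 (3) and Fam241b (2). The neighbours were described after the data were examined. Near Nhlh1, 3 of 4 probes of Vangl2, a planar cell polarity gene whose probes lie 47.7 to 51.0 kb away, were 4.97-fold to 6.14-fold higher and the other was 1.66-fold higher, while Copa and Pex19 stayed within 2-fold. Near Neurog3, both probes of Fam241b were 4.25-fold and 4.27-fold higher, although Neurog3 itself was 1.39-fold higher. Near Neurog1, the chemokine gene Cxcl14 was 5.64-fold lower, from 2146 to 444 units.

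The neighbours of Neurog2 (Zgrf1 and Larp7, 4 measured probes) stayed within 2-fold. Near Neurod4, 5 probes, of Tespa1 and of olfactory receptor genes, were not well above background on either day. Near Neurod1, 3 probes without a gene symbol were also dim on both days, the closest 6944 bases away with intensities of 21.3 and 17.6.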
